A study of Homo sapiens with 4 samples.

Results

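NOLC1, its paralogue TCOF1, coilin (COIL) and 7 core proteins of the small nucleolar ribonucleoproteins (snoRNPs) were followed in MDA-MB-231 cells, an established line from a triple-negative breast tumour, after siRNA against hTrmt13 and after a control siRNA. hTrmt13 is the product of TRMT13, a tRNA ribose methyltransferase. The genes were taken by symbol, 10 of the 28930 symbols counted, and all 10 passed the filter on low counts that left 13022 genes. NOLC1 was selected on its higher level in the knockdown in these same libraries, and the other 9 genes for their relation to it. The comparison of knockdown with control is therefore a description for NOLC1, and for the other 9 it supports nothing beyond its values. The 2 groups were MDA-MB-231 cells given siRNA against hTrmt13 (2 libraries) and the same line labelled siControl, a control siRNA (2 libraries). No other treatment or allele is named, and the sequence, dose and time of the siRNA are not stated in the labels. The comparison asks which transcripts differ when hTrmt13 is reduced.

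snoRNPs are RNA-protein particles that modify ribosomal and spliceosomal RNA. Box C/D particles hold fibrillarin, NOP56, NOP58 and SNU13 and place methyl groups on ribose, and H/ACA particles hold dyskerin, NHP2, NOP10 and GAR1 and turn uridine into pseudouridine. NOLC1 (Nopp140) is a heavily phosphorylated protein of nucleoli and Cajal bodies that binds snoRNPs, and TCOF1 (treacle) shares its repeats of acidic and basic stretches and also acts in ribosomal RNA transcription. Coilin is the scaffold of Cajal bodies, where guide RNAs for spliceosomal RNA gather.

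Total counts were 10606149 and 13098985 in the knockdown libraries and 9777267 and 12851510 in the control libraries. Values are CPM, counts scaled to equal library totals, with the TMM factor for library composition. TRMT13 stood at 3.52 and 4.79 CPM in the knockdown libraries against 14.9 and 18.9 CPM in the control libraries, so each library went with its label. The 6 markers of this cell line were present in every library, at 156 to 1845 CPM, though not at equal levels: EGFR had 303.3 and 404.3 CPM in the knockdown libraries against 1064 and 1361 CPM in the control libraries, and CD44 had 155.7 and 160.3 CPM in knockdown against 272.7 and 273.0 CPM in control. Of 10 markers of other cell types in the table, 5 were at 0 in all libraries, among them ESR1 and PGR, and the list summed to 16.1 and 16.7 CPM in knockdown and 29.3 and 30.6 CPM in control, most of it PDGFRB. The part of these marker differences in the results was not tested. In edgeR's quasi-likelihood test, 389 of 13022 genes (2.99%) had a Benjamini-Hochberg adjusted p under 0.05 and are called changed here, 134 of them higher (1.03%) and 255 lower (1.96%). Equal replicate numbers do not stand for a shared source in the labels, and nothing there says that replicates were separate cultures, so the p-values speak of the spread between libraries, which may be technical.

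NOLC1 had 5177 and 6237 reads in the knockdown libraries against 600 and 1367 in the control libraries, which is 492.3 and 467.2 CPM against 62.6 and 105.7 CPM. Both knockdown libraries lay far above both control libraries, the knockdown pair lay close together and the control pair did not. The level averaged 479.7 ± 17.8 CPM in knockdown and 84.2 ± 30.5 CPM in control (SD, n = 2 each), a log2 fold change of 2.51 (SE 0.30). Between libraries of equal replicate number the log2 difference was 2.97 for number 1 and 2.14 for number 2. In a ranking of all symbols by level, NOLC1 stood at the 99.2th percentile in both knockdown libraries and at the 87.1th and 92.4th in the control libraries. That ranking covers 28930 symbols, 10298 of them at 0 in every library, which raises each percentile. Among the 134 genes called higher it was number 21 by fold change and number 4 by CPM in the knockdown. In bulk RNA, more transcript in every cell and more cells with the transcript cannot be told apart.

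Within the 10 genes, NOLC1 alone took 34.3% and 33.3% of the reads in the knockdown libraries, against 8.25% and 11.7% in the control libraries. The 10 genes together held 0.142% and 0.143% of all reads in knockdown, against 0.0744% and 0.0913% in control. Without NOLC1 these shares were 0.0936% and 0.0955% in knockdown and 0.0682% and 0.0806% in control, so the other 9 genes as a sum were also higher in both knockdown libraries, by a smaller margin.

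**Figure D1:**
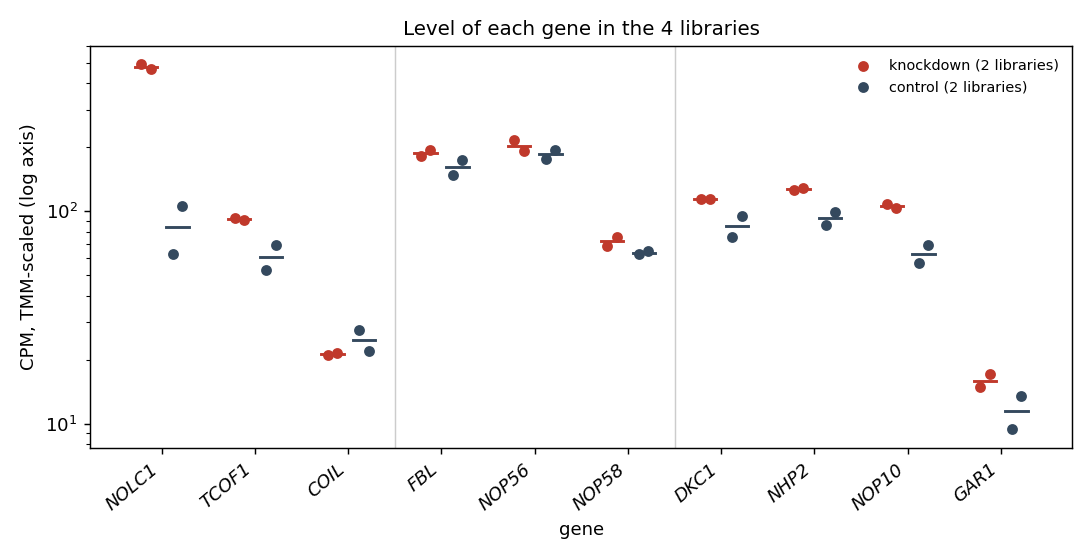
TMM-scaled CPM of the 10 genes on a log axis, with a point for each library and a bar at the mean of each group, knockdown left of control. NOLC1 sits near 480 CPM in both knockdown libraries, against 62.6 and 105.7 CPM in the control libraries, and the other genes lie far closer together.

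TCOF1, mutated in Treacher Collins syndrome, had 93.0 and 90.6 CPM in the knockdown libraries against 52.7 and 69.2 CPM in the control libraries. The groups did not overlap. On the log2 scale the difference was 0.59 (SE 0.23), and it was not called (edgeR adjusted p = 0.191). Set per length within a library, NOLC1 exceeded TCOF1 7.64 and 7.43 times in the knockdown libraries and 1.71 and 2.20 times in the control libraries. The 2 paralogues thus stood much further apart in the knockdown. NOLC1 was selected on this difference, so the ratio is a description with no test.

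COIL had 21.1 and 21.4 CPM in the knockdown libraries against 27.6 and 21.9 CPM in the control libraries. It was the 1 gene of the 10 whose log2 fold change was negative, −0.22 with an SE of 0.26 (edgeR adjusted p = 0.658). Control replicate 2 lay next to the knockdown pair, and without control replicate 1 the value was −0.04.

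Of the box C/D proteins, fibrillarin (FBL), the methyltransferase of the particle, had 182.5 and 194.4 CPM in the knockdown libraries against 148.6 and 175.1 CPM in the control libraries. NOP58 had 68.7 and 76.0 CPM in knockdown against 62.8 and 64.9 CPM in control. For both genes the knockdown libraries lay above the control libraries in CPM by a narrow gap. NOP56, which pairs with NOP58 in the particle, had 215.6 and 191.4 CPM in knockdown against 176.5 and 193.6 CPM in control, and its groups overlapped. SNU13, the box C/D protein that binds the RNA first and is not one of the 10, had 180.2 and 190.3 CPM in knockdown against 150.0 and 187.9 CPM in control. The log2 fold changes of these 4 genes were between 0.13 for SNU13 and 0.22 for FBL, each with an SE of 0.21 or 0.22, and none was called (smallest edgeR adjusted p = 0.570, for FBL).

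The H/ACA proteins had larger values. NOP10, the smallest subunit, had 108.0 and 103.4 CPM in the knockdown libraries against 57.2 and 69.1 CPM in the control libraries, which is 0.74 on the log2 scale (SE 0.22, edgeR adjusted p = 0.113). Both knockdown libraries lay well above the control pair, and this was the largest fold change of the 10 after NOLC1. NHP2, which binds the guide RNA, had 126.1 and 128.0 CPM in knockdown against 86.2 and 99.1 CPM in control (log2 fold change 0.46, SE 0.21). Dyskerin (DKC1), the pseudouridine synthase that is mutated in X-linked dyskeratosis congenita, had 114.6 and 114.7 CPM in knockdown against 75.3 and 95.4 CPM in control (log2 fold change 0.43, SE 0.22). GAR1, the subunit that joins last, had 14.8 and 17.1 CPM in knockdown against 9.39 and 13.5 CPM in control (log2 fold change 0.48, SE 0.31). In all 4 genes the groups did not overlap and the knockdown pair was the higher one, as in 27.5% of all genes tested. None of the 4 was called, where 2.99% of all genes were. GAR1 gave the lowest count of the 10 genes, 90 reads in control replicate 1, for which counting error alone allows 7.55 to 11.5 CPM (95% exact Poisson interval).

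Among the 10 genes, 1 was called higher, NOLC1, and 0 lower, where 1.03% and 1.96% of all genes were. NOLC1 was selected on this contrast, so nothing is read from that count. Of the other 9, edgeR called 0, and 2 had an unadjusted p under 0.05 (NOP10 and TCOF1), where 24.0% of all genes did. DESeq2 also called NOLC1 and none of the other 9, where it called 8.55% of all genes, 3.46% higher and 5.09% lower. The median log2 fold change of the other 9 was 0.43, against 0.01 over all genes tested. With NOLC1 it was 0.44, and 0.26 without control replicate 1. By CPM, both knockdown libraries lay above both control libraries in 7 of the other 9 genes, a pattern that 27.5% of all genes tested showed. In 1, COIL, both lay below (26.8% of all genes). FBL and NOP58, among the 7, overlapped in TPM, the per-length level described below. Their lower knockdown library had 421.6 and 89.9 TPM, against 433.9 and 91.2 TPM in the higher control library. A miss of the threshold does not show that the other 9 genes were at equal levels. Their SE was 0.21 to 0.31 with 2 libraries a group. These calls come from fits that leave out the replicate number. With that number as a block, edgeR also called TCOF1, DKC1, NHP2 and NOP10 higher, where it called 19.3% of all genes higher.

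**Figure D2:**
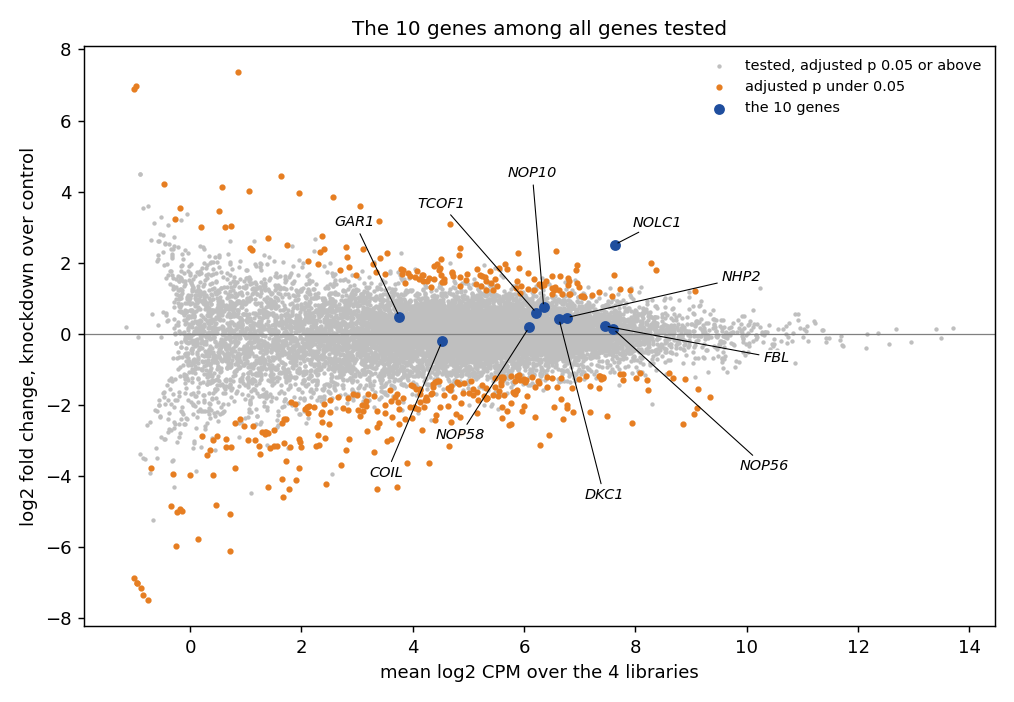
Log2 fold change of knockdown over control against the mean log2 CPM of the 4 libraries for the 13022 genes tested, with the 389 genes at an adjusted p under 0.05 in orange and the 10 genes in blue. NOLC1 stands above the cloud at 2.51, and the other 9 lie within it between −0.22 and 0.74.

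Control replicate 1 was the lowest of the 4 libraries for 9 of the 10 genes, all but COIL, where 26.0% of all genes tested were lowest in that library. That share covers genes of either direction, while genes higher in the knockdown tend to be lowest in a control library. Control replicate 2 lay above control replicate 1 for 9 of the 10 genes, against 52.3% of all genes tested. NOLC1 was 1.69-fold higher in control replicate 2 than in control replicate 1, GAR1 1.43-fold, TCOF1 1.31-fold and DKC1 1.27-fold, while the 2 knockdown libraries differed by no more than 1.15-fold for any of the 10, the ratio of replicate 2 to replicate 1 lying between 0.888 and 1.15. Over all genes averaging 10 CPM or more, the typical distance between replicates was no smaller in knockdown (median 0.33 on the log2 scale) than in control (0.27). The fold changes of the 9 genes that were lowest there were smaller without control replicate 1. NOLC1 then stood at 2.19, NOP10 at 0.62, TCOF1 at 0.41 and GAR1 at 0.25 on the log2 scale. Without control replicate 2 they were larger, at 2.94 for NOLC1, 0.89 for NOP10, 0.80 for TCOF1 and 0.76 for GAR1. What set the control libraries apart was not tested.

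**Figure D3:**
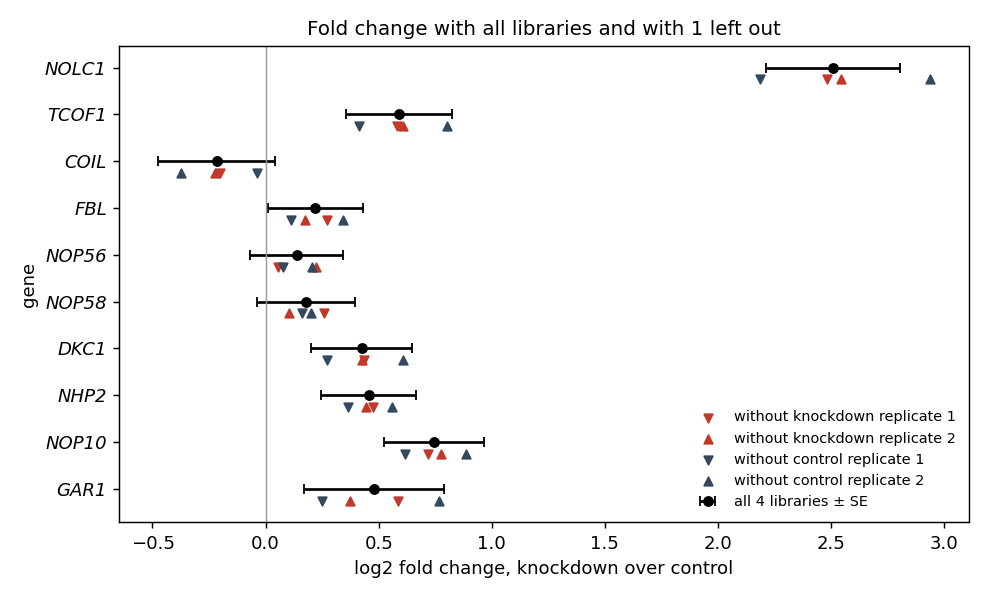
Log2 fold change of knockdown over control for the 10 genes, with the SE of the fit to all 4 libraries as a bar, and triangles for the value with 1 library left out. NOLC1 stays between 2.19 and 2.94, and the triangles of COIL reach −0.04 without control replicate 1.

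Levels of different genes were compared per length, as TPM, which divides counts by the exon length of each gene and scales to equal totals. In the knockdown the order was NOP10 at 525.0 ± 3.43 TPM, FBL at 447.5 ± 36.7, NHP2 at 404.3 ± 19.3, NOLC1 at 332.4 ± 0.051, NOP56 at 233.0 ± 10.9, DKC1 at 102.5 ± 3.91, NOP58 at 97.4 ± 10.6, TCOF1 at 44.1 ± 0.84, GAR1 at 34.8 ± 4.75 and COIL at 22.1 ± 1.05 (SD, n = 2). NOLC1 was the fourth in that order. FBL and NHP2 differed by little more than the SD of FBL, and DKC1 and NOP58 by less than it. In the control libraries the order was FBL at 388.4 ± 64.3 TPM, NOP10 at 317.4 ± 58.1, NHP2 at 298.1 ± 44.3, NOP56 at 214.4 ± 24.8, NOP58 at 86.7 ± 6.37, DKC1 at 77.2 ± 16.7, NOLC1 at 59.4 ± 24.3, TCOF1 at 29.7 ± 7.16, COIL at 25.8 ± 2.88 and GAR1 at 25.3 ± 7.59. NOLC1 was the seventh there, and NOP10 and NHP2 lay within their spread of each other, as did DKC1 with NOP58 and with NOLC1, and TCOF1, COIL and GAR1 among themselves. Lengths come from a GRCh38 annotation while the counts rest on hg19, so these levels are approximate across genes.

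The subunits of a particle were not at equal transcript levels. GAR1 was the lowest H/ACA subunit in every library and DKC1 exceeded it 3.17 and 2.75 times in the knockdown libraries and 3.29 and 2.91 times in the control libraries, so this ratio overlapped between groups. NOP56 exceeded NOP58, its partner, 2.68 and 2.15 times in knockdown and 2.40 and 2.54 times in control, again with overlap. The ratio of DKC1 to NOP10 did not overlap between groups. It was 0.1908 and 0.1995 in the knockdown libraries and 0.2367 and 0.2484 in the control libraries. The summed TPM of the 4 H/ACA genes relative to that of the 4 box C/D genes, SNU13 included, was 1.11 and 1.07 in the knockdown libraries and 0.803 and 0.830 in the control libraries. The groups did not overlap in this ratio, to which NOP10 and NHP2 gave most of the H/ACA sum. With 2 libraries against 2, an exact two-sided permutation test of a single ratio cannot go below p = 0.333.

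**Figure D4:**
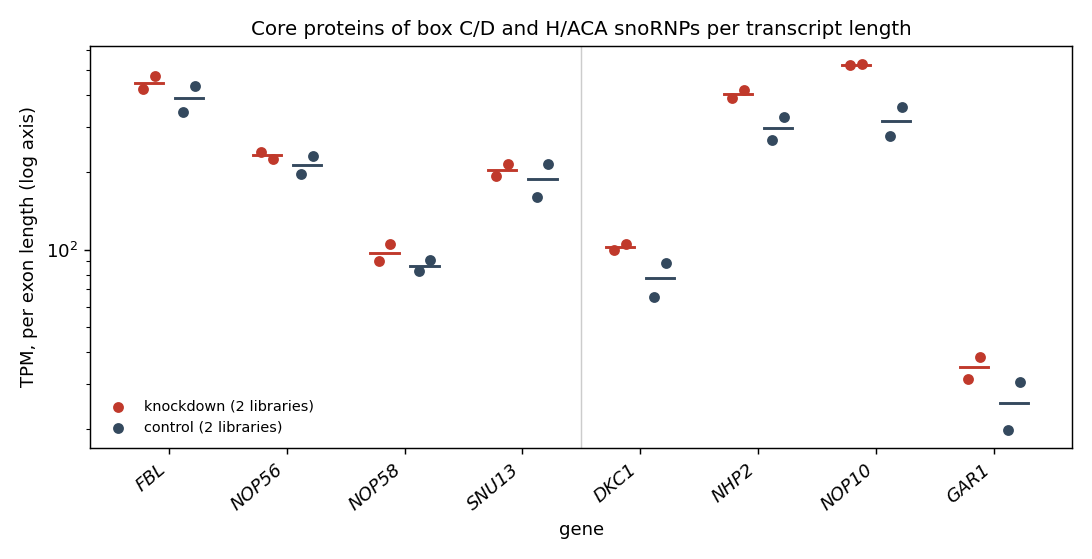
TPM of the 4 box C/D genes (left) and the 4 H/ACA genes (right) on a log axis, with a point for each library and a bar at the group mean, knockdown left of control. In DKC1, NHP2 and NOP10 the knockdown libraries lie clear of the control libraries. The GAR1 groups nearly touch (31.5 TPM in the lower knockdown library, 30.6 TPM in the higher control library). The groups overlap in all 4 box C/D genes.

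Start-site windows were looked at for the E-box letters CACGTG, the site class bound by MYC and related helix-loop-helix factors, which have ribosome-making genes among their known targets. RefSeq windows of GRCh38.p14, 250 bases before to 50 after a start site, were matched for 7 of the 10 genes (COIL, FBL, NOP56, DKC1, NHP2, NOP10 and GAR1), and the motif reads the same on both strands. The letters were in a window of 3 of these 7 genes, against 8.77% of all 27305 genes with a window and 12.5% of the 9686 such genes that were tested here. The 3 windows are shown because they hold the letters, set in capitals, in NOP10, the gene next to NOLC1 in fold change, in its fellow H/ACA gene GAR1, and in the box C/D gene FBL, whose fold change was small.
NOP10, chr15:34343087-34343386, minus strand: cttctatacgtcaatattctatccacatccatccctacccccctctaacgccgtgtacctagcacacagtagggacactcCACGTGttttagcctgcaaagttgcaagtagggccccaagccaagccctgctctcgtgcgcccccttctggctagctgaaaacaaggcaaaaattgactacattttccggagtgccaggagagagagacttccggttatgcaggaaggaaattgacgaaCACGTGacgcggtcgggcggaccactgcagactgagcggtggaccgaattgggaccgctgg
GAR1, second start site, chr4:109815512-109815811, plus strand: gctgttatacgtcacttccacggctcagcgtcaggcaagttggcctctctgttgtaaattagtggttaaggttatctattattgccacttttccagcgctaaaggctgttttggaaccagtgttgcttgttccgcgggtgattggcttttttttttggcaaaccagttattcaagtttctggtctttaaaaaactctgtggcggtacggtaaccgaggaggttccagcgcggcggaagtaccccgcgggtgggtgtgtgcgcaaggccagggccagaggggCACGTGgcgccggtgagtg
FBL, chr19:39846330-39846629, minus strand: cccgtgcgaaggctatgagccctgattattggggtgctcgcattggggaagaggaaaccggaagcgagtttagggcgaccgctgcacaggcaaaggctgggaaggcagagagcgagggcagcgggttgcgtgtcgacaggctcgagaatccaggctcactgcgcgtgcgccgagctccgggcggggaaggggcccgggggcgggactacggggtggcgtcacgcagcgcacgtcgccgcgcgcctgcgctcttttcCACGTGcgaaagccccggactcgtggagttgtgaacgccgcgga
The NOP10 window holds 2 copies, starting 170 and 11 bases before the start site. The GAR1 copy starts 31 bases after the second of its start sites, and the FBL copy 6 bases after its start site. The windows of COIL, NOP56, DKC1 and NHP2, and the first window of GAR1, do not have these letters. A match describes the letters and not binding, and whether it bears on the levels was not tested.

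GENCODE 29 places small nucleolar RNA genes inside 3 of the 10 genes, on the same strand: SNORA36A and SNORA56 in DKC1, SNORD56, SNORD57, SNORD86, SNORD110 and SNORA51 in NOP56, and SNORD11, SNORD11B, SNORD70 and 1 entry without a gene name in NOP58. Such guide RNAs are cut from the introns of their hosts. The SNORD names are box C/D guides and the SNORA names H/ACA guides, so NOP56, a box C/D protein gene, holds guides of both kinds. The table has 2 rows named for a small nucleolar or Cajal body RNA, with 1 and 1 reads in the knockdown libraries and 1 and 3 reads in the control libraries, which is at or below a floor of 3 reads, so the guides could not be measured here. Processed pseudogenes of genes such as NOP56 and NHP2 are annotated too, and reads of any gene with such copies may be shared with them.

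NOLC1 lies on chromosome 10, and its nearest genes with a row in the table were taken in RefSeq order. On one side, PPRC1, a coactivator of the PGC-1 family, had 160.4 and 118.3 CPM in the knockdown libraries against 106.2 and 114.9 CPM in the control libraries. LDB1 had 154.1 and 116.8 CPM in knockdown against 119.9 and 85.2 CPM in control, and HPS6 81.3 and 66.1 CPM in knockdown against 42.9 and 54.5 CPM in control. The log2 fold changes were 0.33, 0.40 and 0.60, none of them called. On the other side ELOVL3, a fatty acid elongase, had 5 and 2 reads in knockdown against 15 and 26 in control (log2 fold change −2.55, SE 0.65, edgeR adjusted p = 0.0801), PITX3 had 0 reads in every library, and GBF1 stood at a log2 fold change of 0.12 (SE 0.20). None of the 6 neighbours was called, and PPRC1, LDB1, HPS6 and GBF1 stood between 0.12 and 0.60 on the log2 scale.

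The genes most like NOLC1 over the 4 libraries were sought among the 4731 other genes averaging 50 CPM or more, by the Euclidean distance between log2 CPM values centred on each gene's mean. Symbols of clone, LOC, LINC, KIAA, FLJ, FAM or open reading frame type were passed over when the nearest were named. The nearest of the rest was SFTA1P, a pseudogene transcript (distance 0.43). It had 134.6 and 126.4 CPM in the knockdown libraries against 24.2 and 30.0 CPM in the control libraries. It was followed by DCBLD2, a membrane receptor-like protein (0.67), SETD7, a lysine methyltransferase (0.77), MCCC1, a subunit of methylcrotonyl-CoA carboxylase (0.77), and SEMA3E, a semaphorin (0.82). Their log2 fold changes lay between 1.84 for SEMA3E and 2.26 for SFTA1P, below that of NOLC1. Among those of the other 9 genes that averaged 50 CPM or more, the nearest was NOP10, at place 259 of 4731 (distance 1.84). TCOF1 came next at place 399 (1.97). These places count all symbols, also those passed over above. A likeness over 4 libraries in 2 groups rests on few values.

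The wider pathway was read from 6 further lists, chosen for their function and with earlier results of these data known. U3 snoRNP partners, proteins that work with the box C/D particle needed to cut ribosomal RNA, had a positive log2 fold change in 10 of 10 genes, with a median of 0.33, against 0.01 over all genes and 50.4% of all genes positive. The median was 0.24 without control replicate 1, 0.59 without control replicate 2, 0.44 without knockdown replicate 1 and 0.38 without knockdown replicate 2. None was called by edgeR, 2 had an unadjusted p under 0.05 (IMP3 and IMP4), where 24.0% of all genes did, and DESeq2 called 1, IMP3, where it called 8.55% of all genes. The same shares over all genes apply to the lists that follow. IMP3 had 105.0 and 77.1 CPM in the knockdown libraries against 47.1 and 47.8 CPM in the control libraries (log2 fold change 0.94, SE 0.25, edgeR adjusted p = 0.0858). Among 12 nucleolar marker proteins, 11 values were positive with a median of 0.51, edgeR called 0, 5 had an unadjusted p under 0.05, all higher (11.5% of all genes were higher at that p), and DESeq2 called 2, both higher (3.46% of all genes). These were NIP7, a 60S assembly factor, with 97.2 and 78.5 CPM in knockdown against 37.3 and 43.9 CPM in control (log2 fold change 1.11, SE 0.24, edgeR adjusted p = 0.0597), and NOL6, with 277.7 and 189.1 CPM in knockdown against 110.9 and 122.3 CPM in control (log2 fold change 1.00, SE 0.25, edgeR adjusted p = 0.0803). The abundant nucleolar proteins NPM1 and NCL stood at 0.30 and 0.10, and DDX21, an RNA helicase, at −0.41.

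snoRNP assembly factors were split. Of 10, 7 had a positive and 3 a negative value, with a median of 0.19. This median was 0.071 without control replicate 1, 0.48 without control replicate 2, 0.35 without knockdown replicate 1 and 0.026 without knockdown replicate 2. The edgeR test called 0 of them, 4 had an unadjusted p under 0.05 (3 higher, 1 lower) and DESeq2 called RUVBL2. RUVBL2 and RUVBL1, the paired ATPases of the R2TP chaperone complex, had 287.1 and 218.2 CPM and 190.8 and 172.8 CPM in the knockdown libraries, against 116.7 and 148.3 CPM and 107.1 and 120.1 CPM in the control libraries. Their log2 fold changes were 0.93 (SE 0.25) and 0.68 (SE 0.21), with edgeR adjusted p-values of 0.0882 and 0.12. The lower gene was ZNHIT6, at 94.6 and 100.5 CPM in knockdown against 141.5 and 134.9 CPM in control (log2 fold change −0.50, SE 0.20, edgeR adjusted p = 0.197). In RNA polymerase I and its factors, the machinery that TCOF1 serves, 11 of 15 values were positive with a median of 0.15 (0.24 without control replicate 1), edgeR called 0, 4 had an unadjusted p under 0.05 (3 higher, 1 lower) and DESeq2 called CD3EAP, a subunit of the polymerase. The 2 genes with the smallest p were POLR1B, the second largest subunit, at 71.6 and 73.5 CPM in knockdown against 34.9 and 44.0 CPM in control (log2 fold change 0.88, edgeR adjusted p = 0.0925), and CD3EAP, at 43.8 and 22.9 CPM in knockdown against 14.6 and 13.6 CPM in control (1.24, edgeR adjusted p = 0.107). The knockdown libraries of CD3EAP were far apart from each other. TWISTNB, the lower gene, had 18.1 and 22.3 CPM in knockdown against 26.1 and 44.5 CPM in control (log2 fold change −0.81, SE 0.33, edgeR adjusted p = 0.196).

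Of 18 Cajal body and telomerase genes tested, of 19 listed, 9 values were positive and 9 negative, with a median of 0.02 that lay between 0.0099 and 0.10 with 1 library left out. The edgeR test called 0, 2 had an unadjusted p under 0.05 and DESeq2 called GEMIN5. GEMIN5, the part of the SMN complex that reads spliceosomal RNA, had 114.1 and 104.6 CPM in the knockdown libraries against 49.7 and 67.2 CPM in the control libraries (log2 fold change 0.90, SE 0.24, edgeR adjusted p = 0.0908), and USPL1, a SUMO protease of Cajal bodies, stood at 0.79 (SE 0.29). SMN1 and SMN2, which are near-identical so that their reads cannot be kept apart, stood at −0.78 and −0.82. Of the 5 genes for the kinase CK2, which phosphorylates NOLC1, and for the CUL3 ligase with KBTBD8, which modifies NOLC1 and TCOF1, 2 were positive and 3 negative, edgeR called 0, 0 had an unadjusted p under 0.05 and DESeq2 called 0. CSNK2A2 stood at 0.43 (SE 0.21) and CSNK2B, at only 2.71 to 5.47 CPM, at 0.46 (SE 0.40). The negative values were −0.22 for CSNK2A1 (SE 0.22), −0.21 for CUL3 (SE 0.28) and −0.35 for KBTBD8 (SE 0.70). The list median of −0.21 turned positive without control replicate 2 (0.44) and without knockdown replicate 1 (0.20), and was −0.37 without knockdown replicate 2. The 8 core proteins of both particles, SNU13 included, all had positive values with a median of 0.32 (0.21 without control replicate 1), edgeR called 0, 1 had an unadjusted p under 0.05 and DESeq2 called 0.

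**Figure D5:**
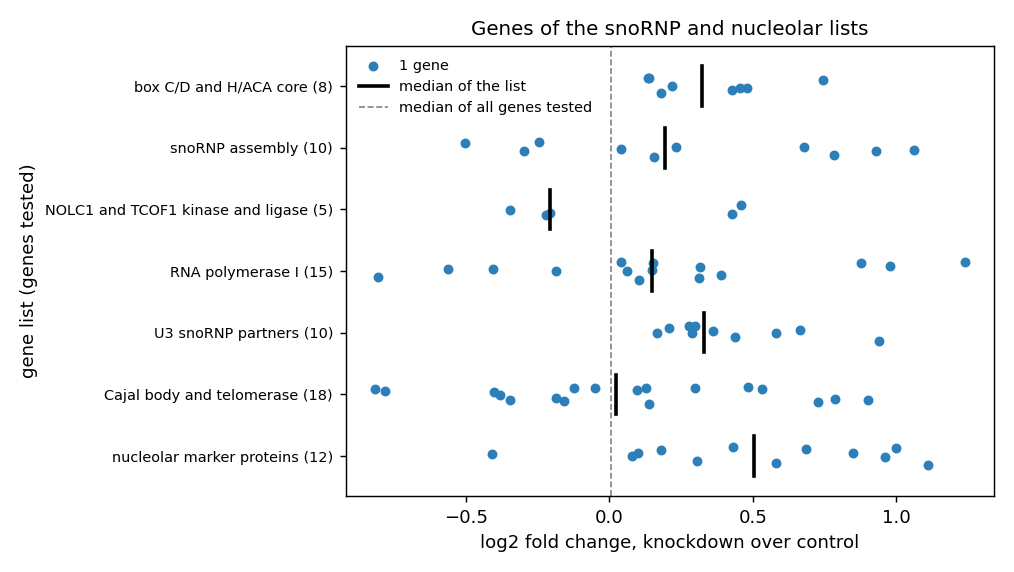
Log2 fold change of knockdown over control for each gene of the 7 lists, with a bar at the list's median and a dashed line at the median of all genes tested (0.01). All U3 partners and core proteins lie right of that line, and Cajal body genes lie on both sides of it.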

How the data were processed

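RNA was measured in 4 bulk libraries of MDA-MB-231 cells. Total RNA was extracted with Trizol and prepared with an Illumina TruSeq kit, per the labels' protocols. The deposited table holds raw read counts for each gene symbol. The submitters' processing notes list the builds hg19 and GRCh37 and the tools STAR 2.5.2b, HTSeq 0.6.1, cutadapt and limma, without their roles. The strand setting, annotation and filters are not stated there, so reads of overlapping or antisense genes may be mixed.

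Libraries were grouped by their descriptions. The counts were tested with edgeR 4.0.16 (R 4.3.3): TMM scaling, filterByExpr (minimum count 10, minimum total 15), the quasi-likelihood test without covariates, and Benjamini-Hochberg adjustment over the 13022 genes left. The SE is the log2 fold change divided by the square root of the test's F. Replicates differed by more than sampling noise, with a chi-square of 44.5 per degree of freedom in knockdown and 40.4 in control. This excess does not show that replicates were separate cultures. Each library was entered in the test as its own sample. DESeq2 1.42.0 was an alternative. TPM were computed here from the counts and GENCODE 29 basic exon lengths, which covered at least 97.6% of the reads. Intervals on counts cover counting error only. Counts were simulated for 13022 genes, and those that passed the filter were tested. The edgeR test called 10 of 99 genes changed 2-fold, 82 of 100 changed 4-fold and 10 of 12657 unchanged. The simulated libraries were drawn independently, without an effect shared by equal replicate numbers, so these shares may not hold for the data. The core proteins and 6 other lists, the named genes (the 10 genes, TRMT13, SNU13, the called genes of a list or else the 2 with the smallest p, the 5 genes nearest to NOLC1, and 3 neighbours on each side) and the members were chosen with earlier results of these data known. Other list genes are named where DESeq2 called them, where an unadjusted p set them apart, or as familiar members, chosen after their values were seen.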

Additional observations from a re-analysis of the deposited data

How the results depend on the processing

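The log2 fold change of each of the 10 genes kept its sign under all 11 alternatives, and that of NOLC1 lay between 2.19 and 2.94. NOLC1 was selected on these libraries, so its calls under the alternatives are no evidence of stability. Other scalings and filters moved no gene of the 10 across the threshold. The number of genes called depended on the processing, and the calls among the 10 genes changed only with the replicate number as a block. Genes called higher and lower were 457 and 673 with DESeq2, and 826 and 1123 in edgeR without a filter on low counts. With 1 library left out, 198 to 363 genes were called higher and 407 to 572 lower. With the replicate number as a block, 2517 were called higher and 2710 lower (40.1% of genes tested), and 5 of the 10 genes were called higher, where 19.3% of all genes were: NOLC1, TCOF1 (adjusted p = 0.00514), DKC1 (0.0324), NHP2 (0.0217) and NOP10 (0.000673). The deviations of equally numbered libraries from their group means correlated with r = 0.639 across genes. Library numbers in the titles run on within a replicate number, but no label says that this marks a shared source. With 2 pairs, the number was left out of the main fit. Any variation shared by equally numbered libraries then counts as error there. The cause of the difference in calls was not tested. In the lists, the block called 3 higher and 0 lower of the core proteins, 4 and 1 of the assembly factors, 1 and 0 of the kinase and ligase genes, 4 and 3 of RNA polymerase I, 3 and 0 of the U3 partners, 5 and 2 of the Cajal body genes, and 7 and 1 of the nucleolar markers. GAR1 had the fewest reads of the 10 genes, so depth limits its value most.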
